A study of Mus musculus with 15 samples.

Results

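The combined-antibody experiment is made of 4 of the 15 libraries of the series, chosen by their titles, with no measured value used in the choice. The library titled combo is read here, from its title beside the others, as antibodies to B7S1 and PD-1 given together. The libraries titled anti_B7S1 and anti_PD1 stand for the single antibodies, and the library titled Control is the baseline. All 4 were labelled as tumour-infiltrating cells of wild-type C57BL/6 mice, aged 9 to 11 weeks, and the series text describes female mice that received E.G7 cells under the skin at 6 to 8 weeks and whose tumours were sampled on day 21. E.G7 cells are EL4 mouse lymphoma cells engineered to make ovalbumin. The sorted fraction, the antibody clones, doses and schedule, any control antibody and the number of mice pooled are not given in the labels used here. Expression is given in FPKM, a fragment count divided by transcript length and sequencing total. Each treatment had 1 library, so no difference below has a replicate check or a p-value.

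PD-1 is a receptor on activated T cells whose engagement dampens signals from the T cell receptor. B7S1, also called B7-H4 or VTCN1, is a ligand of the B7 family that restrains T cells through a receptor of its own. Antibodies that block such axes are given to release killer T cells, which act through perforin and granzymes. In chronically stimulated T cells a stem-like state, held by the transcription factor TCF-1, gives rise to effector and exhausted states marked by further inhibitory receptors such as Tim-3. The comparison asks what both antibodies do together, and whether the result is more or less than the sum of what each does alone.

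Of 14710 gene symbols listed once, 6913 stood at 1 FPKM or more in combo, 6972 in anti_B7S1, 8640 in anti_PD1 and 5752 in Control. The number of symbols listed at 0 was 4828 in combo, 4424 in anti_B7S1, 2244 in anti_PD1 and 6242 in Control. Of 124 genes for ribosomes, the proteasome, glycolysis and oxidative phosphorylation, 0 were listed at 0 in each antibody library and 1 in Control. The read depth is unknown. The CD8 T cell genes were present in every library: Cd8a stood at 407 FPKM in combo, 285 in anti_B7S1, 379 in anti_PD1 and 355 in Control. Of 9 listed markers of CD8 T cells, Cd3g alone was past 2-fold between combo and Control, at 1739.7 FPKM in combo against 725 in Control.

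The ratios below are log2 ratios on FPKM + 1, over genes with at least 5 FPKM in the higher of the libraries compared, and a gene was counted when it was past 2-fold. A gene above that minimum in 1 library and near 0 in the other is past 2-fold by the arithmetic alone. Between combo and Control 68% of 7226 genes were past 2-fold either way, between combo and anti_B7S1 64.1% of 7546, and between combo and anti_PD1 56.3% of 8000. The wild-type library pairs of 3 sorted PD-1+ populations of the same series, which came from separately normalized tables, serve as a guide to the spread between replicates. By the same rule 63.7% of genes differed 2-fold between the pair of PD-1+Tim-3-B7S1R+ cells (B7S1R_SP), 60.2% between the pair of PD-1+Tim-3+B7S1R- cells (TIM-3_SP) and 25.6% between the pair with neither marker (DN). The share between combo and Control lay above all 3 replicate pairs, and that between combo and anti_PD1 lay below 2 of them. A single gene past 2-fold is therefore within what libraries of 1 sorted population can show. The single antibodies set against the same Control had shares of like size, with 37.9% higher and 29% lower of 7083 genes for anti_B7S1 (66.9% either way) and 43.8% higher and 23.8% lower of 7829 for anti_PD1 (67.6% either way).

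**Figure D1:**
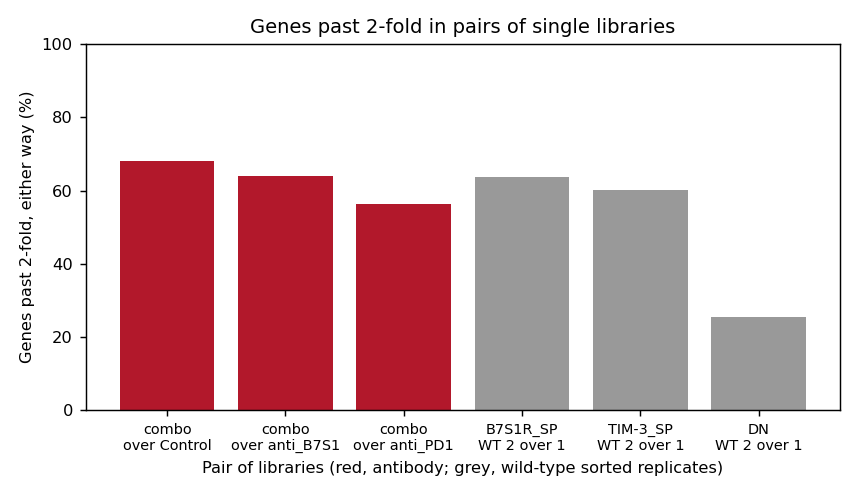
Bars give the percentage of genes past 2-fold either way on log2(FPKM + 1), over genes with at least 5 FPKM in the higher library, for combo over each other antibody-experiment library (red) and for wild-type library 2 over library 1 of each sorted population (grey). The bar of combo over Control stands at 68%, above the replicate pairs at 63.7%, 60.2% and 25.6%, and the bar of combo over anti_PD1 stands at 56.3%.

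Compared with Control, the combo library held more transcript of most of the killing genes compared, of Spp1 and Pdcd1, and of genes of cell division. It held less of genes of stem-like and memory T cells. Of the 7226 genes, 2896 were 2-fold higher in combo (40.1%) and 2021 were 2-fold lower (28%), with a median log2 ratio of 0.27. Of the genes counted as higher, 1302 were listed at 0 in Control, and of those counted as lower 529 were listed at 0 in combo. Scaling the libraries by their upper quartile moved that median by -0.16. In bulk libraries such as these, fewer cells of a kind and less RNA per cell cannot be told apart.

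Cytotoxic effector genes were mostly higher in combo. Of 24 listed genes 20 passed the minimum, 15 were 2-fold higher in combo (against 40.1% of all genes) and 2 lower (against 28%), and their median log2 ratio was 4.15. Over the same genes anti_PD1 had 15 higher (against 32% of all genes) and 4 lower (against 26.1%), with a median of 3.81. The anti_B7S1 library had 11 higher (against 25.4%) and 5 lower (against 29.1%), with a median of 1.40. Between replicate sorted libraries, for library 2 over library 1, the list had 3 genes higher and 11 lower of 19 in the B7S1R_SP pair, 4 and 10 of 22 in the TIM-3_SP pair and 4 and 7 of 22 in the DN pair, with medians from -1.49 to -0.32. Perforin, encoded by Prf1, forms the pore through which granzymes enter a target cell. It stood at 624.5 FPKM in combo, 295 in anti_B7S1, 793 in anti_PD1 and 0.11 in Control, a log2 ratio of 9.14 for combo over Control. Replicate sorted libraries differed in Prf1 by 0.06 to 5.73 log2 units. Gzmb, the main granzyme of killer T cells, stood at 257 FPKM in combo, 788 in anti_B7S1, 1716 in anti_PD1 and 0.04 in Control. Combo therefore held the least Gzmb of the 3 antibody libraries, while its log2 ratio over Control was 7.95. Fasl, the death ligand of T cells, was nearly level among the antibody libraries, at 115 FPKM in combo, 106 in anti_B7S1 and 132 in anti_PD1, against 0.03 in Control. Ccl3 and Ccl4, inflammatory chemokines made by activated CD8 T cells, parted from each other. Ccl3 was highest in combo, at 389 FPKM against 43.6 in anti_B7S1, 176 in anti_PD1 and 2.41 in Control. Ccl4 stood at 254 FPKM in combo, 537 in anti_B7S1, 361 in anti_PD1 and 0.09 in Control. Ifng, the main T cell cytokine, was lower in combo than in either single antibody library, at 142 FPKM in combo, 216 in anti_B7S1, 259 in anti_PD1 and 37.8 in Control. Nkg7, a granule protein of killer cells, reached 4090.1 FPKM in combo, against 2792 in anti_B7S1, 2991 in anti_PD1 and 839 in Control. Tnf, another T cell cytokine, was likewise highest in combo, at 125 FPKM, with 12.3 in anti_B7S1, 92.2 in anti_PD1 and 64.9 in Control, and lay within 2-fold of Control. Ccl5, a chemokine of effector and memory CD8 T cells, stood at 1229 FPKM in combo, 3054 in anti_B7S1, 1775 in anti_PD1 and 625 in Control. Xcl1, which attracts cross-presenting dendritic cells, was lowest in combo, at 37.6 FPKM, with 56.9 in anti_B7S1, 129.8 in anti_PD1 and 691 in Control. The other gene of the list 2-fold lower in combo was a granzyme, Gzmm, with a log2 ratio of -5.14. Gzmm was listed at 0 in combo and anti_PD1, with 0.32 FPKM in anti_B7S1 and 34.4 in Control.

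A further group of effector genes was high in combo and anti_PD1 and near 0 in anti_B7S1 and Control. Spp1 encodes osteopontin, a secreted phosphoprotein that activated T cells can make. Its values were 2971 FPKM in combo, 0.04 in anti_B7S1, 972 in anti_PD1 and 0.13 in Control, and its log2 ratio of combo over Control was 11.36, against differences of 0.86 to 2.10 between replicate sorted libraries. Gzmk, a granzyme of less terminally differentiated CD8 T cells, stood at 134 FPKM in combo and 137 in anti_PD1 and was listed at 0 in anti_B7S1 and Control. Gzmd and Gzme, granzymes of strongly activated killer cells, showed the same split. Gzmd had 22.7 FPKM in combo and 28.4 in anti_PD1, Gzme had 57.0 in combo and 74.3 in anti_PD1, and both were listed at 0 in anti_B7S1 and Control. Gzmd, Gzme and Gzmf are close paralogs among which reads can be shared. Gzmf did not share the split, with 41.0 FPKM in combo, 20.4 in anti_B7S1, 81.7 in anti_PD1 and 0 in Control. Gzma went the other way: it was listed at 0 in combo and Control, with 0.13 FPKM in anti_PD1 and 35.0 in anti_B7S1. In the 6 wild-type sorted libraries Gzmk ranged between 12.9 and 449 FPKM and Spp1 between 53.0 and 3185, so the values near 0 in anti_B7S1 and Control were below that range, as far as tables normalized separately can be set side by side.

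**Figure D2:**
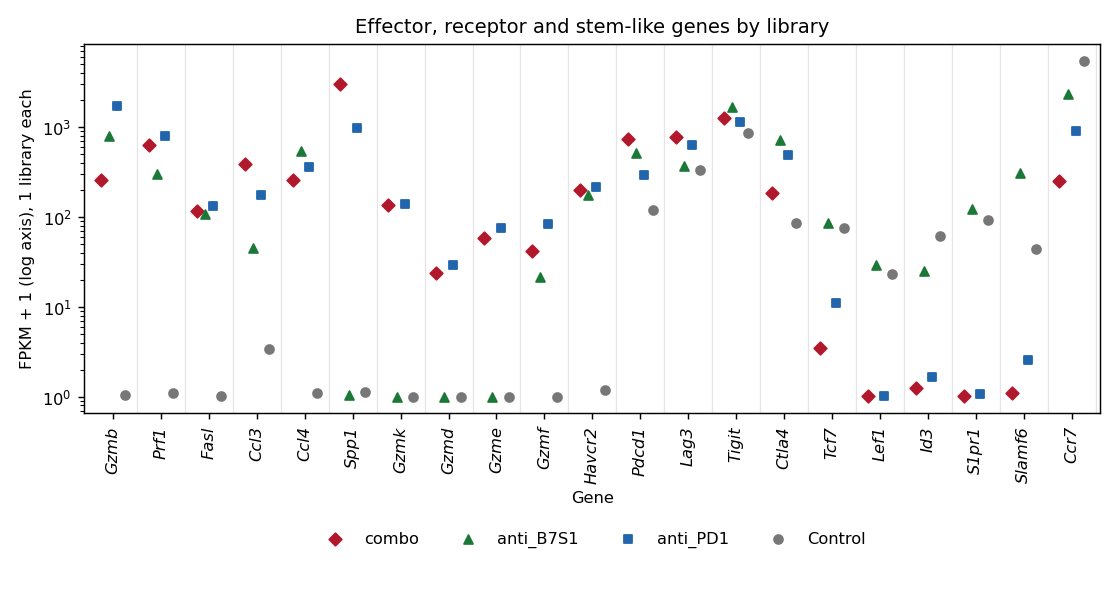
Each column is a gene and each symbol 1 library, with FPKM + 1 on a log axis and the order combo, anti_B7S1, anti_PD1, Control within a column. Gzmb, Prf1, Fasl and Ccl4 lie low in Control alone, Spp1, Gzmk, Gzmd and Gzme lie low in anti_B7S1 and Control, and Lef1 and S1pr1 lie near 1 in combo and anti_PD1.

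Of 16 inhibitory receptor genes, 9 were 2-fold higher in combo (against 40.1% of all genes) and 3 lower (against 28%), with a median log2 ratio of 1.16. That median was 0.57 with no minimum level, and also with only genes above 0 in all 4 libraries. Over the same 16 genes the median over Control was 0.81 in anti_B7S1 and 0.91 in anti_PD1. In the B7S1R_SP replicate pair 15 of 17 of these genes were 2-fold lower in library 2, with a median of -3.07, a larger size than that of combo over Control. The TIM-3_SP pair had a median of -0.93 and the DN pair one of -0.23. Pdcd1, the gene of PD-1 itself, was highest in combo, at 735 FPKM, with 509.9 in anti_B7S1, 292 in anti_PD1 and 117 in Control. Its ratio of 2.64 over Control was smaller than the log2 difference of 3.59 between the replicate B7S1R_SP libraries, and larger than the difference of 0.05 between the DN libraries. Havcr2, the gene of Tim-3, stood at 198 FPKM in combo, 174 in anti_B7S1, 213 in anti_PD1 and 0.19 in Control. Every antibody library held Havcr2 at a like level, and Control alone stood apart. Lag3, a receptor for MHC class II, reached 764 FPKM in combo, 367 in anti_B7S1, 624 in anti_PD1 and 334 in Control, and combo alone was past 2-fold over Control. Replicate sorted libraries differed in Lag3 by 0.50 to 6.09 log2 units. Tigit was within 2-fold in all, at 1266 FPKM in combo, 1677 in anti_B7S1, 1129.7 in anti_PD1 and 852 in Control. Ctla4, a receptor that competes with CD28 for B7 ligands, stood at 185 FPKM in combo, 710.04 in anti_B7S1, 487 in anti_PD1 and 83.6 in Control, so that both single antibody libraries were above combo. The receptor genes 2-fold lower in combo were Cd200, Cd160 and Cd274. Cd160 stood at 0.02 FPKM in combo, 32.0 in anti_B7S1, 31.2 in anti_PD1 and 20.2 in Control.

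Among regulators of exhaustion and effector fate, 6 of 12 were 2-fold higher in combo (against 40.1% of all genes), 3 were lower (against 28%) and the median was 1.22. The median was 0.54 with no minimum level and 0.80 with only genes above 0 in all 4 libraries. Over the same 12 genes the median over Control was 0.39 in anti_B7S1 and 0.39 in anti_PD1. Between replicate libraries, for library 2 over library 1, 11 of 15 were 2-fold lower and 1 higher in the B7S1R_SP pair (median -2.67) and 9 of 16 lower and 2 higher in the TIM-3_SP pair (median -1.69), both larger in size than 1.22, and the DN pair had a median of -0.44. Id2, a partner of E proteins that favours effector cells, stood at 1587 FPKM in combo, 1082 in anti_B7S1, 1586 in anti_PD1 and 328 in Control. Tox, a factor required for exhausted T cells, was at 292 FPKM in combo, 345 in anti_B7S1, 169 in anti_PD1 and 86.7 in Control. Its relative Tox2 was above 1 FPKM in combo alone, at 29.8 FPKM, with 0.03 in anti_PD1 and a listing at 0 in anti_B7S1 and Control. Nfatc1, a calcium-driven factor of T cell activation, was highest in combo at 258 FPKM, with 157 in anti_B7S1, 85.7 in anti_PD1 and 31.1 in Control, whereas Nfatc2 stood at 0.02 FPKM in combo, 4.95 in anti_B7S1, 0.08 in anti_PD1 and 16.03 in Control. Batf, an AP-1 factor of activated T cells, was far higher in anti_B7S1 than elsewhere, at 52.0 FPKM in combo, 422 in anti_B7S1, 99.6 in anti_PD1 and 15.9 in Control.

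Genes of stem-like and memory T cells were mostly lower in combo. Of 23 listed genes 19 passed the minimum, 14 were 2-fold lower in combo (against 28% of all genes), 1 was higher (Cd27), and the median log2 ratio was -4.42. Over the same genes anti_PD1 had 14 lower (against 26.1% of all genes) and 1 higher, and anti_B7S1 had 9 lower (against 29.1% of all genes) and 2 higher. Tcf7, which encodes TCF-1, stood at 2.50 FPKM in combo, 85.2 in anti_B7S1, 9.96 in anti_PD1 and 73.8 in Control. Its log2 ratio of -4.42 exceeded the differences of 0.64 to 0.72 between replicate sorted libraries. S1pr1, the receptor that guides T cells out of tissue, stood at 0.02 FPKM in combo, 120.2 in anti_B7S1, 0.07 in anti_PD1 and 90.8 in Control. Combo and anti_PD1 were low in these genes, and anti_B7S1 and Control were high. Lef1, a partner of TCF-1, had 0.02 FPKM in combo, 28.0 in anti_B7S1, 0.03 in anti_PD1 and 22.2 in Control. Slamf6, a surface marker of stem-like T cells, stood at 0.09 FPKM in combo, 303 in anti_B7S1, 1.57 in anti_PD1 and 43.4 in Control. Ccr7, a chemokine receptor of naive and central memory cells, was well expressed in every library, with 249 FPKM in combo, 2318 in anti_B7S1, 896 in anti_PD1 and 5452 in Control. Il7r, the receptor for IL-7, lay within 2-fold of Control in combo, at 63.6 FPKM in combo, 114 in anti_B7S1, 23.4 in anti_PD1 and 46.7 in Control. Id3, which restrains effector differentiation, stood at 0.24 FPKM in combo, 24.3 in anti_B7S1, 0.65 in anti_PD1 and 59.9 in Control. Bach2, a repressor that holds memory cells back from effector fate, stood at 0.11 FPKM in combo, 10.7 in anti_B7S1, 7.53 in anti_PD1 and 44.7 in Control. Both were lowest in combo and highest in Control. Between replicate sorted libraries 8 to 15 genes of the list were past 2-fold in either direction, with medians from -1.50 to -0.74.

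Cell cycle genes had the largest median of the 17 function lists, 5.51, with 28 of 30 genes 2-fold higher in combo (against 40.1% of all genes) and 0 lower. The exceptions were Mcm6 and Pcna, and Pcna, the sliding clamp of DNA replication, stood at 122 FPKM in combo, 222 in anti_B7S1, 426 in anti_PD1 and 221 in Control. The anti_PD1 library also had 28 of 30 genes 2-fold higher (against 32% of all genes), and anti_B7S1 had 9 (against 25.4% of all genes). Of all 32 genes of the list, 0 were listed at 0 in combo, 11 in anti_B7S1, 0 in anti_PD1 and 16 in Control. The summed level of the list was 3222 FPKM in combo, 595 in anti_B7S1, 4462 in anti_PD1 and 451 in Control. Ccna2, the cyclin of S and G2 phase, stood at 232 FPKM in combo and 195 in anti_PD1 and was listed at 0 in anti_B7S1 and Control. Cdc20, an activator of the anaphase-promoting complex, was higher in combo than in anti_PD1, at 171 FPKM in combo and 51.5 in anti_PD1, with 0.17 in anti_B7S1 and a listing at 0 in Control. Mki67, the gene of the proliferation marker Ki-67, was lower in combo than in anti_PD1, at 6.08 FPKM in combo and 29.1 in anti_PD1, with 1.59 in anti_B7S1 and a listing at 0 in Control. Stmn1, a regulator of microtubules, stood at 476 FPKM in combo, 31.5 in anti_B7S1, 859 in anti_PD1 and 0 in Control. Between replicate sorted libraries 9 to 17 genes of the list were past 2-fold, with medians from -0.32 to 1.16.

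**Figure D3:**
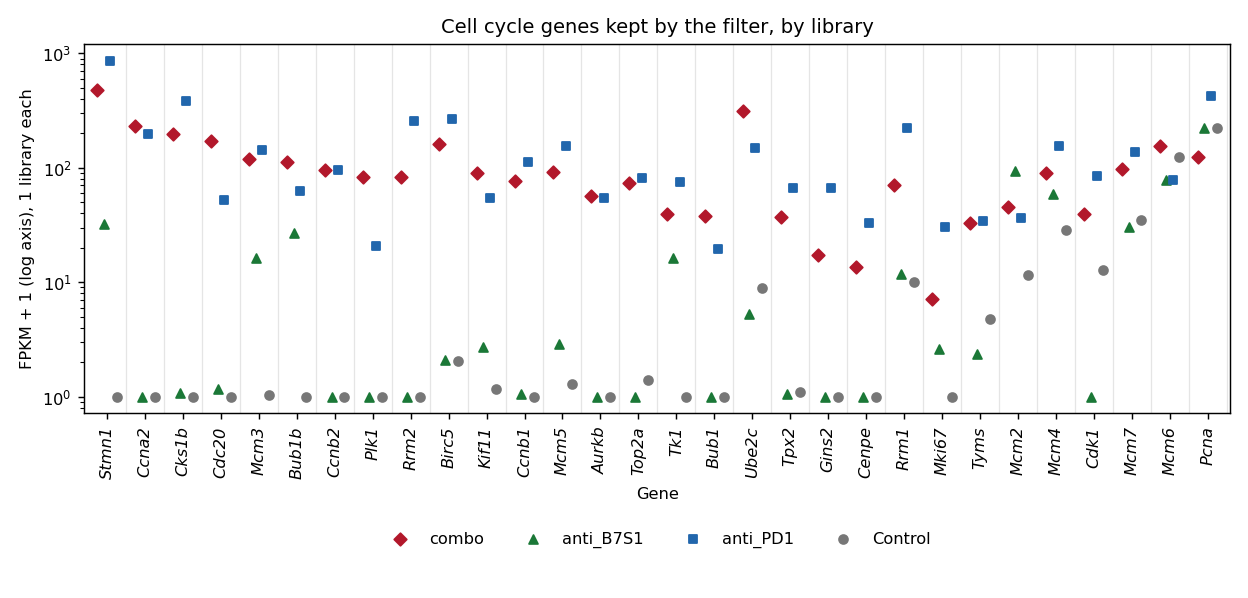
The 30 cell cycle genes that passed the minimum are ordered by their ratio of combo over Control, with FPKM + 1 on a log axis and 1 symbol per library. Combo and anti_PD1 lie together above anti_B7S1 and Control for most genes, and the libraries converge at the right, where Mcm6 and Pcna are the genes below 2-fold.

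Because these genes were high together, the promoters of 4 of them are shown, with the bases before the RefSeq transcription start (build GRCm38.p6, a patch release of the assembly that the name mm10 stands for). Capitals mark matches to CCAAT, the box bound by NF-Y, to TTTGAA, a core found in promoters of genes of late cell cycle phases, and to TTTCCCGC or TTTGGCGC, forms of the E2F site, each searched on both strands. No matches overlapped in these windows.
Ccnb2, cyclin B2, chr9:70421555-70421704, minus strand: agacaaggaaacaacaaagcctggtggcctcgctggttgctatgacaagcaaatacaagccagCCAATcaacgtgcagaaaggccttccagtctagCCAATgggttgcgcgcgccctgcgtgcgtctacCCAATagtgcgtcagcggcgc
Cdc20, chr4:118437344-118437493, minus strand: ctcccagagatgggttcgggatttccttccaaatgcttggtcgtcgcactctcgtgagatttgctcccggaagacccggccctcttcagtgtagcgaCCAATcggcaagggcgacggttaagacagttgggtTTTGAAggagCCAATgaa
Top2a, topoisomerase II alpha, chr11:99024190-99024339, minus strand: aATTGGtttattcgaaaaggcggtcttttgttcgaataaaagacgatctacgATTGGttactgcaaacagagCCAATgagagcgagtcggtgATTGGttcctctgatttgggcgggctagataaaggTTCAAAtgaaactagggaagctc
Mcm5, a replicative helicase subunit, chr8:75109359-75109508, plus strand: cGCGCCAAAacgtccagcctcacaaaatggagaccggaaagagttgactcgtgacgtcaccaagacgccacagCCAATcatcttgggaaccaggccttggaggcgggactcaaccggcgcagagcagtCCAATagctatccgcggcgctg
Of the 28 cell cycle genes 2-fold higher in combo, 22 matched the promoter table. In the 250 bases before the start, 19 of the 22 held CCAAT (86.4%), against 34.5% of 27025 mouse promoters and 37.4% of 5527 promoters of the genes compared. TTTGAA was found in 9 of the 22 (40.9%), against 16.3% of all promoters and 11.0% of those of the genes compared. Each E2F form was found in 1 of the 22 (4.5%). Of all promoters 0.93% held TTTCCCGC and 0.44% held TTTGGCGC, and of the genes compared 2.0% and 1.1%. The 4 promoters printed all hold matches, whereas those of Birc5, Tk1 and Tyms held 0 in the same 150 bases. These are matches of letters, and the motifs were chosen with the list's values known.

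Glycolysis genes were lower in combo where they differed, with a median of -1.20. Of 14 genes, 8 were past 2-fold downward (against 28% of all genes) and 0 upward (against 40.1%). Tpi1, a triose phosphate enzyme, stood at 138 FPKM in combo, 207 in anti_B7S1, 411 in anti_PD1 and 804 in Control. Gapdh had 1539 FPKM in combo, 1656 in anti_B7S1, 3242 in anti_PD1 and 3488 in Control, whereas Ldha, which makes lactate, was at 943 FPKM in combo, 789 in anti_B7S1, 944 in anti_PD1 and 744 in Control. For Gapdh and Tpi1 the combo library was thus nearer anti_B7S1 than anti_PD1. Between replicate sorted libraries 7 to 9 glycolysis genes were past 2-fold in the B7S1R_SP and TIM-3_SP pairs and 1 in the DN pair. For library 2 over library 1 the medians were -1.06 in the B7S1R_SP pair, -1.13 in the TIM-3_SP pair and 0.23 in the DN pair. The first 2 are near the -1.20 of combo over Control. Oxidative phosphorylation genes had a median of -0.13 with 4 higher and 6 lower of 37, and proteasome genes 0.12 with 5 higher and 1 lower of 28. Over all genes 40.1% were higher and 28% lower. Ribosomal protein genes had a median of -0.44 over 44 genes, 3 lower (against 28% of all genes) and 0 higher (against 40.1%). Their summed level was 40391 FPKM in combo, 76361 in anti_B7S1, 61116 in anti_PD1 and 52362 in Control.

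Type I interferon response genes had a median of 3.49, with 8 of 13 higher in combo (against 40.1% of all genes) and 4 lower (against 28%), and 13 of the 26 genes in the list did not pass the minimum or were not listed. With no minimum level the median was 0.0072, so the value of 3.49 rests on that minimum. Over the same 13 genes the median over Control was 3.96 in anti_B7S1 and 0.15 in anti_PD1. Between replicate libraries, for library 2 over library 1, 12 of 19 were 2-fold lower and 0 higher in the B7S1R_SP pair, with a median of -1.36, and the TIM-3_SP and DN pairs had medians of -0.10 and -0.75. Isg15, a ubiquitin-like protein made in response to interferon, stood at 45.05 FPKM in combo, 26.03 in anti_B7S1, 4.84 in anti_PD1 and 0 in Control. Rtp4 and Xaf1, further interferon-induced genes, were likewise lower in anti_PD1 and Control, and Rtp4 stood at 20.8 FPKM in combo, 53.9 in anti_B7S1, 0.11 in anti_PD1 and 0 in Control. Ifi27l2a, another interferon-induced gene, did not share that split, at 10.1 FPKM in combo, 333 in anti_B7S1, 116 in anti_PD1 and 0.14 in Control. Immediate early and stress genes had a median of -0.66, with 6 higher (against 40.1% of all genes) and 11 lower (against 28%) of 26. In the B7S1R_SP replicate pair 21 of 26 were 2-fold lower and 0 higher in library 2, with a median of -2.47. The TIM-3_SP pair had 14 of 25 lower and 3 higher, with a median of -1.18, and the DN pair had a median of -0.50. Fos, a subunit of AP-1, was at 0.13 FPKM in combo, 20.8 in anti_B7S1, 10.6 in anti_PD1 and 199.8 in Control. T cell receptor signalling genes had 13 of 31 higher, a share near the 40.1% of all genes, 2 lower (against 28%) and a median of 0.92. The same genes had a median over Control of 0.77 in anti_B7S1 and 0.77 in anti_PD1. In the B7S1R_SP replicate pair 26 of 33 of them were 2-fold lower in library 2, with a median of -2.00, and the medians were -0.98 in the TIM-3_SP pair and -0.28 in the DN pair. Ptpn22, a phosphatase that restrains the receptor's signal, stood at 309 FPKM in combo, 243 in anti_B7S1, 394 in anti_PD1 and 19.2 in Control. Costimulatory receptors (median 0.30 over 13 genes), MHC class I presentation (0.37 over 14), effector differentiation (-0.38 over 14), tissue residency (-0.46 over 8) and chemokine and cytokine receptors (-0.64 over 19) had medians within 2-fold.

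**Figure D4:**
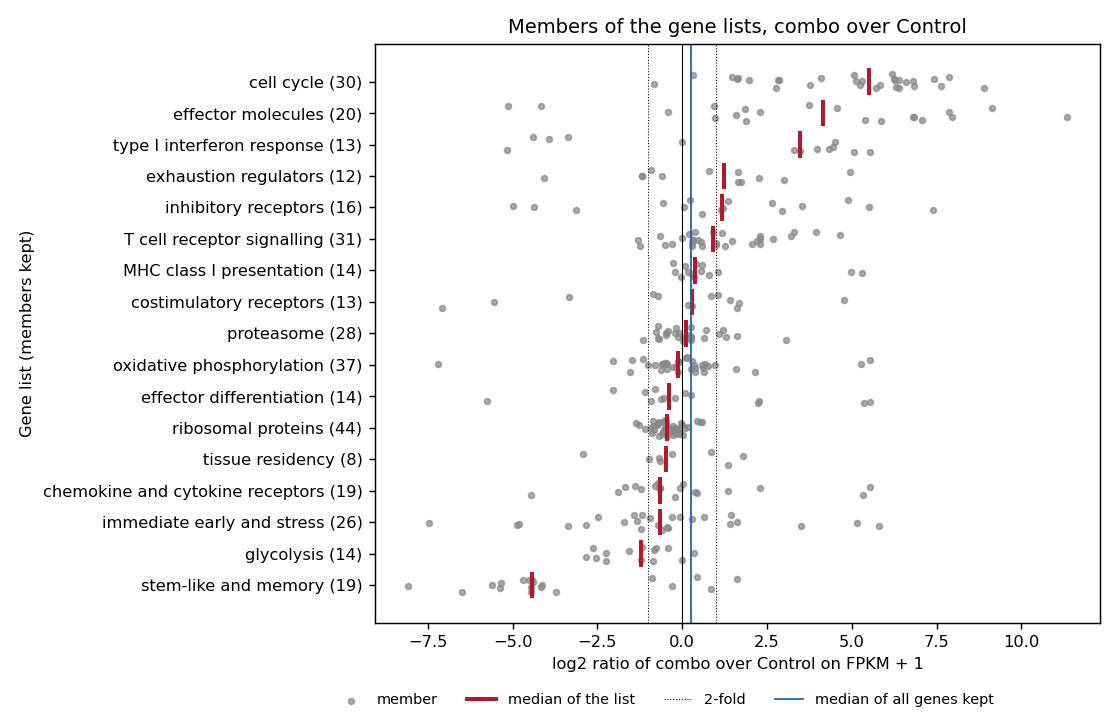
Each grey point is a gene that passed the minimum, placed by its log2 ratio of combo over Control on FPKM + 1, with the list's median in red and the median of all 7226 genes, 0.27, as a blue line. The cell cycle and effector lists have medians of 5.51 and 4.15 and the stem-like and memory list one of -4.42, while the interferon median of 3.49 becomes 0.0072 with no minimum level.

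Outside the lists, the genes with the largest ratios that were above 0 in both libraries included Rhog, Adam8 and Park7 among the higher and Nrn1, Penk and Il1r2 among the lower. Rhog, a small GTPase, stood at 194 FPKM in combo, 210.4 in anti_B7S1, 127 in anti_PD1 and 0.05 in Control. Adam8, a membrane metalloprotease, was highest in combo at 166 FPKM, with 38.3 in anti_B7S1, 68.9 in anti_PD1 and 0.02 in Control. Penk, which encodes the opioid precursor proenkephalin, stood at 33.6 FPKM in combo, 0.17 in anti_B7S1, 147 in anti_PD1 and 8704 in Control. Il1r2, a decoy receptor for IL-1, was also far lower in combo than in Control, with 22.9 FPKM in combo, 384 in anti_B7S1, 113 in anti_PD1 and 4729 in Control. Nrn1, the gene of neuritin, was near 0 in combo alone, at 0.10 FPKM, with 277 in anti_B7S1, 148 in anti_PD1 and 337 in Control. Ece1, an endothelin-converting protease, had 0.18 FPKM in combo, 19.4 in anti_B7S1, 31.9 in anti_PD1 and 338 in Control. Of genes listed at 0 in Control the highest in combo after Stmn1 was Plac8, at 354 FPKM in combo, 208 in anti_B7S1 and 676 in anti_PD1. Of those listed at 0 in combo the highest in Control was Cd68, at 247 FPKM, followed by the chemokine gene Ccl22, at 201 FPKM in Control and listed at 0 in all 3 antibody libraries.

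The combination was then set against the sum of the log2 ratios of anti_B7S1 and anti_PD1 over Control. All 3 ratios share the Control library, which enters the difference with the opposite sign. A gene low in Control alone thus reads higher in each ratio and below the sum. Conversely, a gene high in Control alone reads lower in each ratio and above the sum. Over the 7226 genes, combo minus the sum was past 1 log2 unit upward for 2743 (38%) and downward for 2163 (29.9%), with a median of 0.25. Over the 4818 of them above 0 in all 4 libraries the counts were nearly even, 1534 upward and 1478 downward, with a median of 0.01. With median-of-ratios scaling the median over the 7226 genes was 0.54, so no excess of either direction is read from these counts. Of the 2896 genes 2-fold higher in combo, 1251 were also 2-fold higher in both single antibody libraries, 806 in anti_PD1 alone, 255 in anti_B7S1 alone and 584 in neither. By size, 1238 of them were higher by less than the sum, 852 by more and 806 lay within 2-fold of it. Of the 2021 lower genes, 942 were lower in both, 332 in anti_PD1 alone, 307 in anti_B7S1 alone and 440 in neither, and 926 were lower by less than the sum, 546 by more and 549 lay within 2-fold of it.

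Gzmb, Prf1 and Havcr2, which were near 0 in Control alone, lay far below the sum. Gzmb had ratios of 7.95 in combo, 9.57 in anti_B7S1 and 10.69 in anti_PD1, and combo minus the sum was -12.30. Prf1 had 9.14 in combo, 8.06 in anti_B7S1 and 9.48 in anti_PD1, with a difference of -8.41. Havcr2 had 7.39 in combo, 7.20 in anti_B7S1 and 7.49 in anti_PD1, and a difference of -7.30. In each of these genes combo stood below anti_PD1, and each single antibody library was already far above Control. Spp1 exceeded the sum, with 11.36 in combo, -0.12 in anti_B7S1 and 9.75 in anti_PD1 and a difference of 1.73. That excess lay within the differences of 0.86 to 2.10 in Spp1 between replicate sorted libraries. Gzmd (-0.31) and Gzme (-0.38) lay within 2-fold of the sum. Gzmk (-0.04), Ccna2 (0.25) and Lag3 (0.16) lay on the sum, and Pdcd1 (-0.79) lay within 2-fold of it. Tcf7 was lower than the sum by a difference of -1.85, and Slamf6, which was higher than Control in anti_B7S1 with a ratio of 2.78, by -4.02. Penk was low in every antibody library, with ratios of -7.98 in combo, -12.86 in anti_B7S1 and -5.87 in anti_PD1, and a difference of 10.76. Crtam, an adhesion receptor of activated CD8 T cells, had ratios of -5.30 in combo, -9.96 in anti_B7S1 and -4.81 in anti_PD1, and a difference of 9.46. Penk and Crtam were far higher in Control, at 8704 and 1025 FPKM, than in any antibody library. The shared Control raises such differences.

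**Figure D5:**
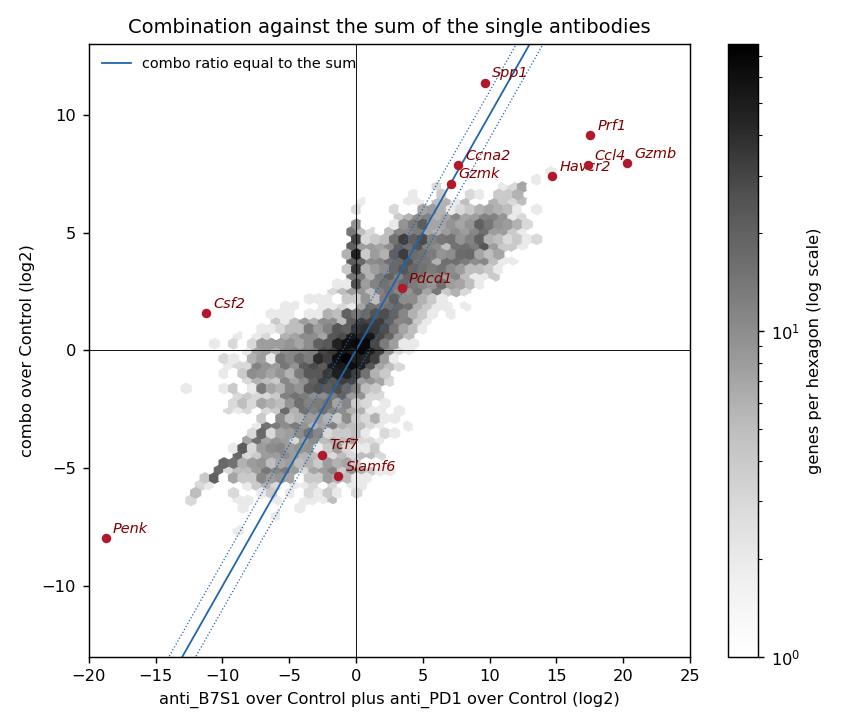
Each of 7226 genes is placed by the sum of its log2 ratios of anti_B7S1 and anti_PD1 over Control and by its log2 ratio of combo over Control, shaded by genes per hexagon, with named genes in red, the line of equality in blue and 1 log2 unit either side dotted. Gzmk and Ccna2 lie on the line, Spp1 above it, and Gzmb, Prf1, Ccl4 and Havcr2 to its right, where combo is below the sum.

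Some genes stood apart from Control in combo while both single antibody libraries stayed within 2-fold of it. Of 1871 genes within 2-fold in both, 475 were 2-fold higher in combo (25.4%) and 350 lower (18.7%), and 235 of the 475 were listed at 0 in Control. A gene near 0 in Control and in both single antibody libraries passed the minimum only when it was high in combo. The share that was higher is thus set in part by that minimum and is not a rate. The genes of this paragraph were chosen after their values were seen. Tjp3, a tight junction protein, stood at 94.8 FPKM in combo and was listed at 0 in the other libraries. Nek2, a mitotic kinase, had 54.6 FPKM in combo, 0.33 in anti_B7S1, 0.93 in anti_PD1 and 0 in Control. In the other direction Itm2a, a membrane protein of activated T cells, stood at 0.07 FPKM in combo, 119 in anti_B7S1, 81.9 in anti_PD1 and 86.6 in Control. Shmt2, the mitochondrial enzyme that feeds serine into one-carbon metabolism, stood at 0.02 FPKM in combo, 50.9 in anti_B7S1, 60.9 in anti_PD1 and 35.6 in Control.

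Set against the single antibodies directly, which leaves Control out, combo held 1887 genes 2-fold higher and 2614 lower than anti_PD1, of 8000, and 2513 higher and 2321 lower than anti_B7S1, of 7546. The shares were 23.6% and 32.7% against anti_PD1 and 33.3% and 30.8% against anti_B7S1. The list counts and shares that follow were instead taken over the 7226 genes with at least 5 FPKM in combo or Control. That minimum uses Control, and it left out genes high in a single antibody library alone. Over anti_B7S1, 26 of 30 cell cycle genes were higher (against 35.8% of the 7226 genes), with a median of 5.04, and 10 of 19 stem-like and memory genes were lower (against 19.4%), with a median of -3.21. Over anti_PD1, 4 cell cycle genes were higher (against 26.7%) and 7 lower (against 20.1%), with a median of -0.53, and the effector list had a median of -0.21. For Pdcd1 the log2 ratio was 1.33 over anti_PD1 and 0.53 over anti_B7S1, and for Gzmb it was -2.74 and -1.61 in the same order. Glycolysis genes had medians of -0.95 over anti_PD1 and -0.61 over anti_B7S1. Ribosomal protein genes had 21 of 44 genes lower over anti_B7S1 (against 19.4%) and 7 over anti_PD1 (against 20.1%).

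Markers of other cell types were mostly at or near 0. Of 29 myeloid genes 18 were listed and 6 passed the minimum, 3 higher and 3 lower in combo. The summed level of the 18 was 211 FPKM in combo, 333 in anti_B7S1, 242 in anti_PD1 and 669.9 in Control, and 8 of them were at 0 in combo, 11 in anti_B7S1, 4 in anti_PD1 and 12 in Control. Lyz2, the lysozyme gene of macrophages, stood at 66.7 FPKM in combo, 0.20 in anti_PD1 and 0 in anti_B7S1 and Control, and Cd14, a monocyte receptor, at 36.4 FPKM in combo and 0 in the others. Cd68, Ctss and Cd74 were lower in combo than in Control and made up nearly all of the myeloid sum there. Cd68, a lysosomal protein of macrophages, stood at 0 FPKM in combo, 0.05 in anti_B7S1, 24.9 in anti_PD1 and 247 in Control. Ctss, a lysosomal protease, stood at 21.4 FPKM in combo, 124 in anti_B7S1, 106 in anti_PD1 and 177 in Control. Cd74, the chaperone of MHC class II, stood at 80.8 FPKM in combo, 208 in anti_B7S1, 90.3 in anti_PD1 and 246 in Control. Csf1r, a defining receptor of macrophages, was at 0 in combo and Control and at 0.29 FPKM or less in the single antibody libraries. The 4 listed B cell genes summed to 0.04 FPKM in combo, 13.2 in anti_PD1 and 0.10 in Control, and all were at 0 in anti_B7S1. Natural killer cell genes summed to 444 FPKM in combo, 118 in anti_B7S1, 352 in anti_PD1 and 98.7 in Control, most of it Klre1, which CD8 T cells can also express. CD4 and regulatory T cell genes summed to 6.87 FPKM in combo, 20.7 in anti_B7S1, 35.7 in anti_PD1 and 8.65 in Control. Stromal and endothelial genes summed to 9.71 FPKM in combo, 2.51 in anti_B7S1, 1.09 in anti_PD1 and 25.9 in Control. Erythroid genes summed to 0.17 FPKM in combo, 40.2 in anti_B7S1, 0.09 in anti_PD1 and 38.5 in Control. The part of other cells, or of the lower number of genes detected in Control, in any ratio above was not tested.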

How the data were processed

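Libraries were grouped by their titles. Reads were made from amplified cDNA of low-input RNA (SMARTer kit), per the labels' protocols, and HISAT2, Bowtie2, RSEM and the mm10 build are named, without versions, per the submitters' processing notes. The deposited FPKM values, which the authors had normalized for length and library total, were used as they stand, and RSEM can split reads among close paralogs. Low values showed no steps of whole reads, so the depth is unknown and gives no interval. Log2 ratios on FPKM + 1 were computed with Python 3.11.15, pandas 2.3.3 and numpy 2.4.6 over genes with at least 5 FPKM in the higher library, and a gene was counted past 2-fold. The expected value for both antibodies was the sum of the single antibodies' log2 ratios. The calculation was tested on simulated data. No test between treatments was possible with 1 library each. 1 symbol listed more than once was left out.

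The genes named were a panel of 28, the 10 largest ratios each way among genes of at least 10 FPKM above 0 in both libraries, the 6 largest differences from the sum each way among such genes above 0 in all 4 libraries, the 6 highest genes at 0 in 1 library each way and up to 4 genes of each of 24 lists with the largest ratios. The ranked groups leave out antigen receptor segments, histones, pseudogenes, small RNAs and genes with only a predicted name. Batf, Cd8a, Cd27, Cd160, Cd274, Csf1r, Dapl1, Fasl, Nkg7, Gzmd, Gzme, Lef1, Csf2, Gapdh, Ldha, Mcm5, Mcm6, Pcna, Top2a, Ccnb2, Rtp4, Xaf1, Itm2a, Nek2, Shmt2 and Tjp3 were chosen after their values were seen. So were Birc5, Gzmm, Tk1 and Tyms. 1 gene of the panel is not reported here. The comparison and its lists were chosen with earlier results of these data known. Promoters came from the RefSeq table of 250 bases before to 50 after each start, of which 150 bases before the start are printed. The alternatives tried were other pseudocounts, other minimum levels, other scalings, genes above 0 in every library and summing the repeated symbol.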

Additional observations from a re-analysis of the deposited data

Results flagged for a closer look

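For 4 of the 28 genes of the panel, the PD-1 antibody went past 2-fold one way beside the B7S1 antibody and the opposite way without it, on log2 ratios of FPKM + 1. Gzmb had a ratio of -1.61 for combo over anti_B7S1 and of 10.69 for anti_PD1 over Control, a difference of -12.30. Ccl4 had ratios of -1.08 and 8.37 in the same order, a difference of -9.46. Both rest on Control values under 0.10 FPKM. Ctla4 had ratios of -1.94 for combo over anti_B7S1 and 2.53 for anti_PD1 over Control, a difference of -4.47, and Ccl5 had -1.31 and 1.51, a difference of -2.82. These 4 were well expressed in combo, anti_B7S1 and anti_PD1. Replicate sorted libraries differed by up to 2.34 log2 units in Gzmb, 1.12 in Ccl4, 3.07 in Ctla4 and 1.32 in Ccl5. Each of the 4 ratios of combo over anti_B7S1 was within that size. Genes outside the panel also went opposite ways, among them Ifi27l2a, at -4.91 for combo over anti_B7S1 and 6.68 for anti_PD1 over Control, and Ramp3, at -2.55 and 6.10. Each ratio sets 1 library against 1 other, so the differences were not tested.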

How the results depend on the processing

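Changes of sign were counted only for those of the 248 values of named genes that were at least 1 log2 unit in size. All of these but 1 kept their sign under each other setting that gave a value. Hddc2 had combo minus the sum at -1.55 with a pseudocount of 0.1 FPKM, against 1.29 with 1 FPKM. It was listed at 0 in combo, with 2.49 FPKM in anti_B7S1, 22.2 in anti_PD1 and 197 in Control. For a gene at 0 the pseudocount alone enters the ratio, so such a value moves with that setting. Smaller values were not followed for sign. With no minimum level, 4919 genes were more than 1 log2 unit below the sum, against 2163, and the median ratio of combo over Control was 0.57 for inhibitory receptors, 0.54 for exhaustion regulators and 0.0072 for type I interferon genes, since genes under 5 FPKM in both combo and Control then entered. With only genes above 0 in all 4 libraries, fewer genes entered. Combo over Control then had 1414 genes higher and 1275 lower, combo over anti_PD1 1008 higher and 1143 lower, and combo over anti_B7S1 1211 higher and 1326 lower. The genes above the sum numbered 1534, against 2743, those higher in combo with neither single antibody past 2-fold 269, against 584, and the medians were 0.57 for inhibitory receptors and 0.80 for exhaustion regulators. Other minimum levels, pseudocounts and scalings left each count within 1.5 times its value and each list median on its side of 2-fold. List medians past 2-fold also kept their direction. Those within 2-fold were not followed for sign, and small ones such as the proteasome median of 0.12 may change it. No paired analysis was possible because each treatment had 1 library and the titles of the 4 libraries carry no replicate number. With 1 library each, no setting tells treatment from library, and the unknown depth limits what a listing at 0 means.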

Other observations

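Csf2, which encodes the cytokine GM-CSF, was chosen after its values were seen and stood at 148 FPKM in combo, 0 in anti_B7S1, 0.05 in anti_PD1 and 48.8 in Control. It was thus at or near 0 with each antibody alone and highest with both, and combo minus the sum was 12.79. Dapl1, a gene of quiescent memory-like T cells, was present in anti_B7S1 alone, at 0 FPKM in combo, 286 in anti_B7S1, 0 in anti_PD1 and 0.10 in Control. The activation and effector genes Cxcr6, Tnfrsf9 and Tbx21 were 2-fold higher than Control in each antibody library. Cxcr6, a chemokine receptor of tumour-resident T cells, stood at 267 FPKM in combo, 263 in anti_B7S1, 328 in anti_PD1 and 105 in Control. Tnfrsf9, the costimulatory receptor 4-1BB, stood at 391 FPKM in combo, 309 in anti_B7S1, 557 in anti_PD1 and 148 in Control. Tbx21, which encodes the effector factor T-bet, stood at 40.3 FPKM in combo, 61.5 in anti_B7S1 and 36.6 in anti_PD1 and was listed at 0 in Control. Combo was within 2-fold of both single antibody libraries for all 3. Cd69, an early activation marker, differed, with 10.2 FPKM in combo, 23.2 in anti_B7S1, 203 in anti_PD1 and 84.6 in Control.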
